A study of Mus musculus with 6 samples.

Results

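The 6 arrays of this series differed in the signal of Mmp20, the gene of enamelysin, the metalloproteinase that cuts the enamel matrix proteins while ameloblasts secrete them. The sets were chosen by that signal: the arrays were ranked on it, and the 3 highest were set beside the 3 lowest, whatever their genotype label, so all 6 of the 6 arrays were used. The higher arrays were those labelled Control 1, Control 2 and Perp-null 3. The lower arrays were those labelled Perp-null 1, Control 3 and Perp-null 2. The grouping came from the data and not from the labels. It therefore defines no groups of the study, so the values of each array are given, without means over the sets and without p-values between them.

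The samples are total RNA of whole first lower molar germs of newborn 129/Sv mice (postnatal day 0), all labelled male. The labels give 3 biological replicates of wild-type mice and 3 of Perp-null mice, which lack Perp, a p53 and p63 target that is a membrane protein of desmosomes. Each sample was labelled with Cy3 on an array of its own. The labels used here do not say how many germs, animals or litters a sample holds, nor how the null allele was made or whether it is constitutive, so a p-value here speaks of sample-to-sample spread, which may be technical.

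In a molar germ, cells of the inner enamel epithelium leave the cell cycle and become ameloblasts, while the facing mesenchymal cells become odontoblasts. Differentiation starts at the cusp tips and spreads down the slopes, so that at birth dividing precursors, odontoblasts laying down dentin and early secretory ameloblasts lie side by side. Ameloblasts first secrete amelogenin, ameloblastin and enamelin, with Mmp20 as the protease of that stage, and later express Klk4, the protease of the maturation stage. Survivin, the product of Birc5, is a part of the chromosomal passenger complex and marks dividing cells.

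Values are log2 of the processed spot intensity minus the 75th percentile of the gene probes of the same array. Mmp20 had 1 probe, which gave 3.28, 3.28 and 2.96 on the higher arrays, in the order of labels above. On the lower arrays it gave 1.35, 0.91 and 0.86. The boundary lay between 2.96 on the array labelled Perp-null 3 and 1.35 on the array labelled Perp-null 1. These values chose the sets and are given as a description. Mmp20 was left out of all counts.

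The genotype labels could not be relied on for these files. Perp was near 6 on the arrays labelled Control 1 (5.96), Control 3 (5.91), Perp-null 1 (5.87) and Perp-null 3 (5.97). It was low on the arrays labelled Control 2 (-5.06) and Perp-null 2 (-6.81), so that 1 array labelled Control and 2 labelled Perp-null went against their labels. In the authors' deposited value table the columns followed their labels, with Perp at 17.01, 16.95 and 16.98 in the Control columns and at 7.51, 8.24 and 7.26 in the Perp-null columns. Over the probes, 5 columns of that table matched a scanner file with a Spearman correlation of at least 0.99. Of these, 1 matched the file of its own label and 4 matched the file of another label. The column labelled Perp-null 2 matched no scanner file (highest correlation 0.977), and the file labelled Perp-null 3 matched no column. Xist, which is expressed from the inactive X chromosome, was above background on the arrays labelled Control 2, Perp-null 1 and Perp-null 2, although each sample is labelled male. On these arrays the Y-linked gene Ddx3y gave -9.08, -5.97 and -8.93, and on the others it lay between 0.61 and 0.81. Eif2s3y and Kdm5d, also Y-linked, split the arrays alike. Of the arrays with Xist, Control 2 is in the higher set and Perp-null 1 and Perp-null 2 are in the lower. The part of sex in the gaps was not tested. Whether the Perp probe lies in the deleted part of the gene is not given in the sources used here. The higher and the lower set of arrays each held 1 array with low Perp signal. Below, each array is called by its label, which names the file and not a known genotype.

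**Figure D1:**
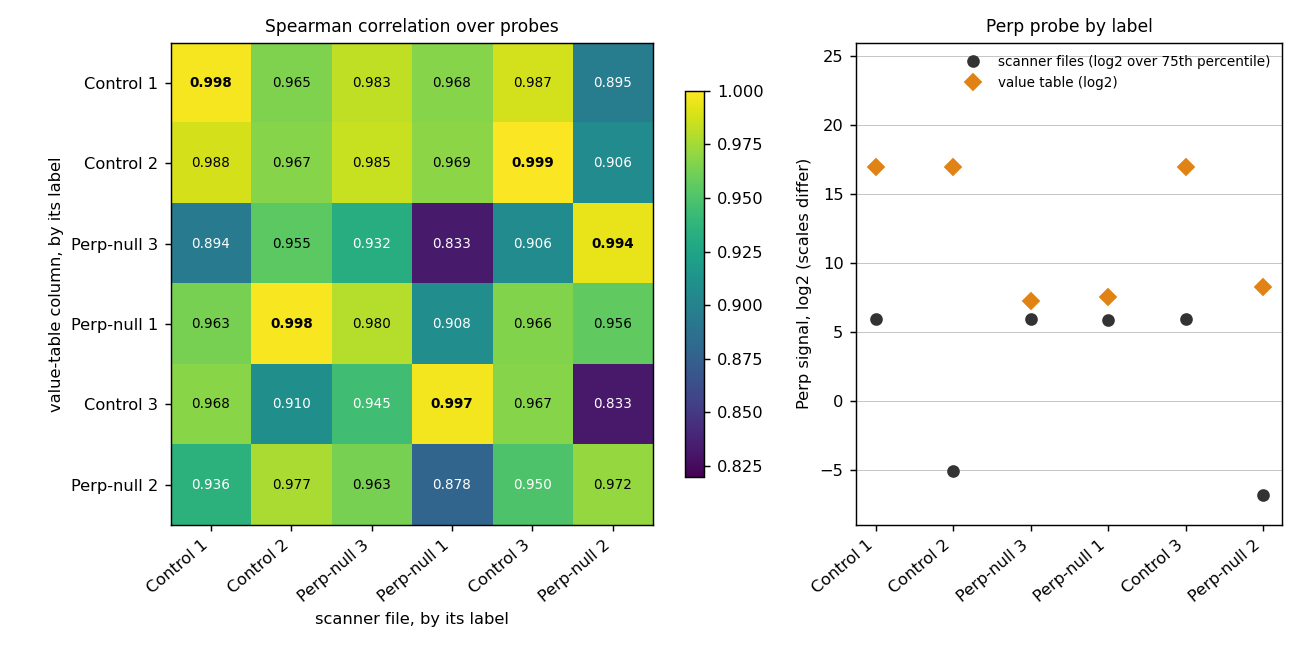
Left, Spearman correlation over probes between each column of the authors' value table (rows) and each scanner file (columns), both by label; bold values are above 0.99. Right, log2 signal of the Perp probe by label in the scanner files (black circles, relative to the 75th percentile of the array) and in the value table (orange diamonds). Perp is low on the scanner arrays labelled Control 2 (-5.06) and Perp-null 2 (-6.81), and in the table in the 3 Perp-null columns.

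The arrays with more Mmp20 signal carried more signal for many enamel genes and part of the dentin genes, and less for most genes of DNA replication and mitosis. A gene is called separated here where its values on the 3 higher-Mmp20 arrays do not overlap those on the other 3, and the gap is the distance between the nearest arrays of the 2 sets. Among 26593 genes and unnamed probes with a value on each array, 2478 (9.32%) were separated with the higher values on the higher-Mmp20 arrays. Another 1723 (6.48%) were separated in the opposite direction. These 2 shares are the background for each count of list members below. Gaps of at least 1 log2 unit, a factor of 2, with signal above background on all 6 arrays were less frequent, with 74 features (0.278%) higher and 23 (0.0865%) lower. Of these, 57 and 19 carried a gene name. In whole germs, more cells of a type and more RNA per cell cannot be told apart.

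The split depended on how arrays were scaled. Subtracting the median of all probes in place of the 75th percentile moved the values of the arrays by -0.37, 0.75 and 0.14 on the higher set and by -1.09, -0.25 and 0.82 on the lower set, relative to the mean move. It left 713 features higher and 305 lower, which are the background for the counts under median scaling below. The median probe is dim, and the medians of the negative control spots were 90, 37.5 and 65.5 intensity units on the higher arrays and 127, 80 and 32 on the lower ones. The part of the background in this difference was not tested. Quantile normalization gave 2271 and 2129 features. Of the genes below, the 15 with the largest gaps in the higher direction were separated under each of the 75th percentile, quantile, normexp and median settings, while those in the lower direction numbered 15, 13, 15 and 2. With quantile normalization 26 of 28 mitosis and 18 of 21 replication genes were lower and 10 of 18 enamel defect genes were higher, while of 22 odontoblast genes 7 were higher and 1 was lower. Counts under median scaling are given beside the lists described below. Neither set lay on 1 slide: slide and scan followed the genotype label, with 2 of the higher arrays on the slide of the Control labels and 1 on the other. The position on the slide followed the replicate number.

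The promoters of 4 genes are shown because their genes stand on the opposite sides of this split: Cdk1, the cyclin-dependent kinase of entry into mitosis, and Ube2c, a ubiquitin-conjugating enzyme of the anaphase-promoting complex, were lower on the higher-Mmp20 arrays, while Ambn and Enam, which encode ameloblastin and enamelin, were higher. The sequences are those of RefSeq (GRCm38.p6), from 250 bases before to 50 bases after the start of the gene, 5′ to 3′ on the strand of the gene. Capitals mark 2 motifs on either strand. The first is CCAAT, the box bound by the factor NF-Y. The second is TTTGAA, the core of the cell cycle genes homology region that is described in promoters of late cell cycle genes. The Cdk1 window is chr10:69352863-69353162 on the minus strand, and that of Ube2c is chr2:164769679-164769978 on the plus strand. Those of Ambn and Enam, on the plus strand, are chr5:88455741-88456040 and chr5:88487725-88488024.
Cdk1: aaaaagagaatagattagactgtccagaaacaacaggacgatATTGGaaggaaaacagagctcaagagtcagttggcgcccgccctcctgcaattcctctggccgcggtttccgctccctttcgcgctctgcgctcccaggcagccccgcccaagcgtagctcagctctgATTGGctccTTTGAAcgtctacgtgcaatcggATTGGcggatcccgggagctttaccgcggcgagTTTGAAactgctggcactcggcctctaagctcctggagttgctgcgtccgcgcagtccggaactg
Ube2c: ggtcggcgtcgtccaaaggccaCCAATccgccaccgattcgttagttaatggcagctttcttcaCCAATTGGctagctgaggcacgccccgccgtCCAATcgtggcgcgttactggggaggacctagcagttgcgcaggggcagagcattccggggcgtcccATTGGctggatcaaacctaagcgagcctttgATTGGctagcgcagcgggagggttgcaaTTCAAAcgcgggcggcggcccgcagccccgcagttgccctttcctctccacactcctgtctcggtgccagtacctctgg
Ambn: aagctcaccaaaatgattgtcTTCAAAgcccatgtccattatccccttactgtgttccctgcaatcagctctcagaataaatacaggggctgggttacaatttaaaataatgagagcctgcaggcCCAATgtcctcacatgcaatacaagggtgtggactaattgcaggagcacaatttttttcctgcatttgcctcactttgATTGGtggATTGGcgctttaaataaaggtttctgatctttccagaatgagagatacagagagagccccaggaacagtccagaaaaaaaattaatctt
Enam: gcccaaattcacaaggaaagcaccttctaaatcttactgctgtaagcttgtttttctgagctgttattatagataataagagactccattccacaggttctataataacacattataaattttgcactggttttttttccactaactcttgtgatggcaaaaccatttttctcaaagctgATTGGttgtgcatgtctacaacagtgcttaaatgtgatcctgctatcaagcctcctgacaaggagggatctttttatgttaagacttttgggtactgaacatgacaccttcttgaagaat

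With both strands searched and overlapping matches counted separately, the Cdk1 window held 3 CCAAT and 2 TTTGAA matches and the Ube2c window 6 and 1. The Ambn window held 3 and 1, and the Enam window 1 and 0. Of the 28 measured mitosis genes discussed below, 24 had a promoter in the table. CCAAT occurred in 20 of these (83.3%), TTTGAA in 18 (75%) and both in 17 (70.8%). Over the promoters of all 27025 genes in the table, 37.9% held CCAAT, 18.1% held TTTGAA and 7.12% held both. Over those of the 12397 genes tested here the shares were 38.4%, 13.4% and 5.48%. Of 18 promoters of DNA replication genes, 10 (55.6%) held CCAAT and 1 (5.56%) held TTTGAA. Of the promoters of the 5 measured enamel matrix genes, 4 held CCAAT and 2 held TTTGAA. A match is a run of letters and was not tested for binding.

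Genes of the enamel matrix were higher with Mmp20. Of the 5 measured, Amelx, Ambn, Enam and Klk4 were separated with higher values on the higher-Mmp20 arrays and Odam overlapped. Under median scaling Ambn, Enam and Klk4 were separated. Amtn and Odaph, which encode amelotin and a further protein of the maturation stage, were not measured here. The brightest gene of the list was Amelx, which encodes amelogenin, the main enamel protein. It gave 6.95, 7.03 and 6.78 on the higher-Mmp20 arrays and 6.65, 6.44 and 6.21 on the others, a gap of 0.13. A second Amelx probe was separated too, with a gap of 0.35. Ambn gave 5.68, 5.95 and 5.61 against 4.78, 4.56 and 3.83, a gap of 0.83. Within the lower set the array labelled Perp-null 2 was lowest for Ambn. Enam gave 4.42, 4.48 and 4.27 against 3.77, 3.25 and 2.57, a gap of 0.50. Klk4, the protease of the later stage, was dimmer and varied more, with 0.34, -0.78 and 0.03 against -0.97, -1.82 and -4.07. Its gap of 0.18 is small beside its range within either set. Odam, which encodes a protein of maturation ameloblasts and of junctional epithelium, gave 3.62, 4.19 and 4.11 against 3.77, 3.78 and 3.93, and the array with the lowest value was in the higher-Mmp20 set.

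A wider group of genes that cause inherited enamel defects in humans separated in part. Of 18 measured, 9 were higher on the higher-Mmp20 arrays, none was lower and 9 overlapped; median scaling left 3 separated. Gaps ran from 0.13 (Cnnm4) to 1.87. The largest was that of Relt. Relt, a member of the tumour necrosis factor receptor superfamily, gave 1.04, 1.20 and 0.95 against -1.09, -0.92 and -1.26. Fam20a, a pseudokinase that activates the secretory kinase Fam20c, gave 5.18, 5.27 and 5.04 against 3.08, 3.62 and 2.86. Its gap was 1.42 and that of a second probe 1.49. Values of both genes were tight on the higher arrays, within 0.25 of each other.

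Genes of adhesion to the basement membrane were among the same 18. Laminin-332 and the hemidesmosome hold epithelia, ameloblasts among them, to the basement membrane. Lamb3, a laminin-332 chain, gave 3.29, 3.30 and 3.28 against 2.22, 2.43 and 2.39, a gap of 0.85. Col17a1, the transmembrane collagen of hemidesmosomes, had a gap of 0.76 and Itgb6, an epithelial integrin subunit, one of 1.04. A second Col17a1 probe had a gap of 0.89. Dst, which encodes the plakin that ties keratin to hemidesmosomes, lay outside the gene lists, was noted after its values were seen, and had a gap of 1.14. By contrast the transcription factor Sp6, a regulator of ameloblast differentiation that belongs to the same group, overlapped. Sp6 gave 5.65, 5.84 and 5.66 against 5.67, 5.58 and 5.75, and lay within a range of 0.26 over all 6 arrays.

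Of 14 measured transcription factors of the dental epithelium, 1 (Runx1, gap 0.15) was separated with higher values and none with lower ones, a share near that over all features, and under median scaling none was. Trp63, the p63 gene of stratified epithelia, gave 4.05, 4.38 and 4.11 against 4.01, 4.06 and 4.06. Keratins of the basal layer overlapped too: Krt5 lay between 6.18 and 6.45 on all 6 arrays and Krt17 between 6.20 and 6.45. Of 13 keratin-list genes, Krt13 and Krt10 were higher and Krt18 was lower, beside 9.32% and 6.48% over all features. Counts this small are near those shares. A second Krt13 probe, dimmer, overlapped. Under median scaling Krt10 and Krt19 were higher and none was lower. Of 12 desmosome genes, Pkp1, Evpl, Ppl and Dsg1a were higher, with gaps from 0.07 to 0.42, beside 9.32% over all features. The other 8, Perp among them, overlapped. With median scaling the 4 that were higher overlapped, and Pkp2, which had overlapped, was lower.

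Ion transport genes of ameloblasts were separated in 8 of 16 cases, each with higher values on the higher-Mmp20 arrays, beside 9.32% over all features. With a background correction by normexp 5 were, and with median scaling 3. The largest gap was that of Itpr1, an endoplasmic reticulum calcium channel, which gave 2.26, 1.89 and 1.82 against 0.31, 0.83 and 0.01. Atp2b1, a plasma membrane calcium pump, gave 2.12, 1.91 and 2.32 against 1.06, 1.30 and 0.84. Slc4a2, a chloride-bicarbonate exchanger, had a gap of 0.14, while Calb1, a calcium-binding protein, was separated by a gap of 0.01, too small to set the arrays apart. Car2, a carbonic anhydrase, overlapped, with its highest value of 3.70 on the array labelled Control 3.

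**Figure D2:**
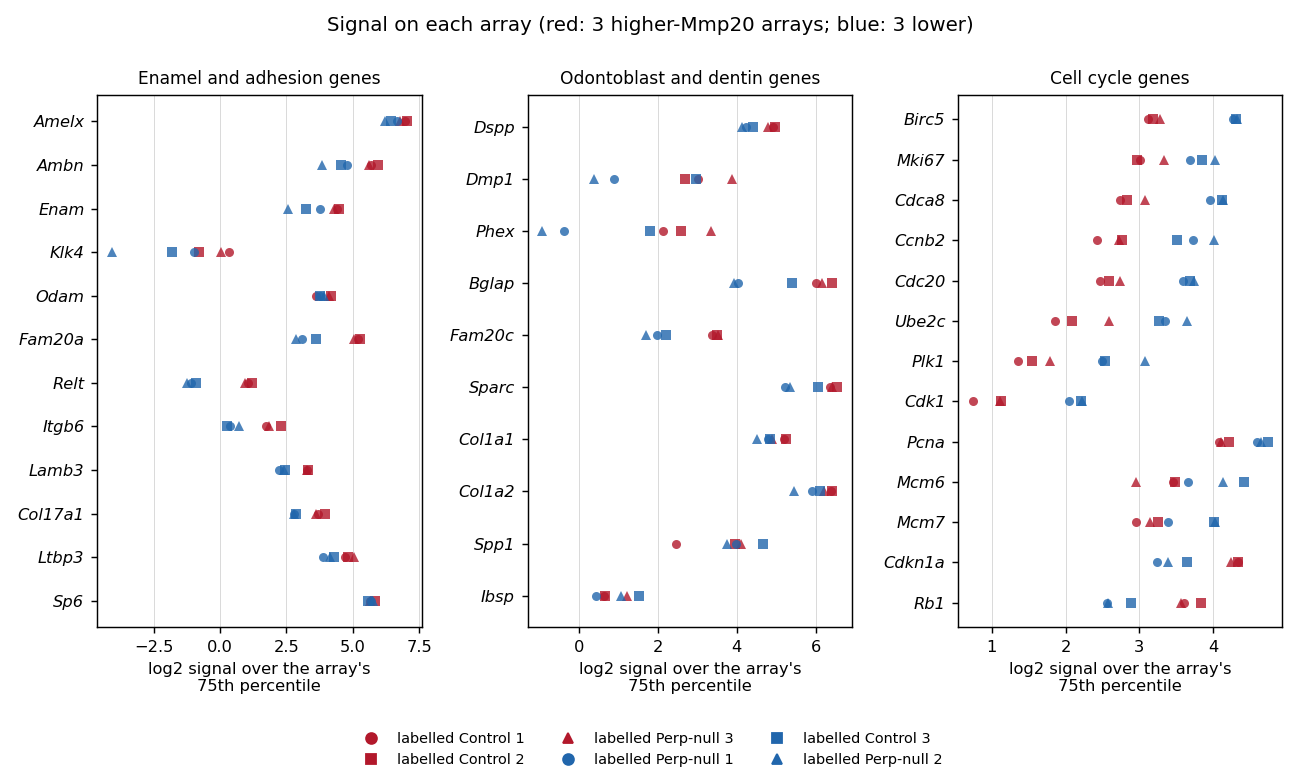
Each point is 1 array, with its log2 signal over the 75th percentile of that array on the horizontal axis. Red points are the 3 arrays with the higher Mmp20 signal and blue points the other 3; marker shape and colour together give the label. Red and blue do not overlap for Fam20a, Relt, Lamb3 and Fam20c on the one side or Birc5, Cdc20 and Plk1 on the other. They overlap for Odam, Sp6, Dmp1, Spp1 and Ibsp; under median scaling none of the 28 mitosis genes is separated.

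Odontoblast and dentin genes were higher in part as well. Of 22 measured, 9 were higher on the higher-Mmp20 arrays, 12 overlapped and 1, Ank, had no value on 1 array. Without the array labelled Control 3, 14 were higher. With median scaling 3 were higher, Phex, Bglap and Fam20c, and 1 that had overlapped, Runx2, was lower. Dspp, the precursor of the main non-collagen dentin proteins, gave 4.93, 4.98 and 4.79 against 4.23, 4.42 and 4.13, a gap of 0.37. Fam20c, the kinase that phosphorylates secreted matrix proteins in dentin and enamel, gave 3.38, 3.50 and 3.52 against 1.97, 2.19 and 1.69. Its gap of 1.19 was the largest of the list. Bglap, which encodes osteocalcin, gave 6.01, 6.41 and 6.17 against 4.02, 5.41 and 3.94, so that the array labelled Control 3 lay between the others. Dmp1, an acidic matrix protein of odontoblasts and bone cells, overlapped for the same reason. Dmp1 gave 3.01, 2.68 and 3.87 against 0.87, 2.95 and 0.37. Phex, an endopeptidase of odontoblasts and bone cells, was separated by a gap of 0.33, again with Control 3 nearest to the higher arrays, and gave 2.12, 2.58 and 3.35 against -0.38, 1.79 and -0.94. Bone-rich genes did not follow Mmp20: Spp1 was highest on the array labelled Control 3 (4.66) and lowest on that labelled Control 1 (2.46), and Ibsp was highest on Control 3 (1.51).

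Genes of cell division were lower almost throughout on the higher-Mmp20 arrays. Of 28 mitosis genes 27 were separated with lower values, Ccna2 overlapped and none was higher. With median scaling none of the 28 was separated. Birc5 gave 3.12, 3.19 and 3.28 against 4.27, 4.31 and 4.33, a gap of 0.99. The values within each set lay within 0.16, far closer than the sets lay to each other. Mki67, which encodes the Ki-67 antigen of cycling cells, gave 3.01, 2.97 and 3.33 against 3.69, 3.85 and 4.03, and its second probe had a gap of 0.50. Cdca8, which encodes borealin of the same passenger complex as survivin, gave 2.74, 2.83 and 3.08 against 3.96, 4.12 and 4.14. Cdc20, an activator of the anaphase-promoting complex, gave 2.47, 2.59 and 2.74 against 3.59, 3.69 and 3.74. Ube2c, whose promoter is printed above, gave 1.86, 2.09 and 2.59 against 3.35, 3.26 and 3.64, and Cdk1 had a gap of 0.92. Gaps in the list ran from 0.36 (Mki67) to 0.99 (Birc5), so no gene of the list reached 1 log2 unit by its brightest probe, though a second Cdca8 probe did (1.01).

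DNA replication genes followed the same order with smaller gaps. Of 21 measured, 20 were separated with lower values on the higher-Mmp20 arrays and Gins2 overlapped; with median scaling 1 was. Pcna, the sliding clamp of DNA polymerase, gave 4.08, 4.21 and 4.11 against 4.59, 4.74 and 4.65. Tyms, the thymidylate synthase, gave 2.85, 2.79 and 3.01 against 3.69, 3.73 and 3.61. Subunits of the MCM helicase had gaps from 0.14 (Mcm7) to 0.83 (Mcm3). For Mcm7 the nearest arrays were Control 2 at 3.25 and Perp-null 1 at 3.39, which shows how close the sets came for part of the list.

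Genes of cell cycle exit were higher. Of 9 measured, 7 were separated with higher values on the higher-Mmp20 arrays, beside 9.32% over all features. Cdkn1a, the p21 inhibitor of cyclin-dependent kinases, gave 4.34, 4.34 and 4.24 against 3.24, 3.65 and 3.39. Rb1, the retinoblastoma protein gene, gave 3.61, 3.83 and 3.57 against 2.56, 2.89 and 2.58. Other probes of Rb1, Btg2, Ccng1 and Cdkn1b overlapped, and with the mean of all probes of a gene 2 of the list were separated, with median scaling 1. Cdkn1c, the p57 inhibitor, overlapped, with 4.25 on the array labelled Control 3.

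Few genes of signals between epithelium and mesenchyme were separated. Of 15 measured, Wnt10a, Wnt6 and Bmp2 were higher and Fgf9 and Sostdc1 (gap 0.07) lower. The shares over all features were 9.32% and 6.48%, and counts this small are near them. Under median scaling Bmp2 was higher and Wnt10b, which had overlapped, was lower, while Fgf9, Sostdc1, Wnt10a and Wnt6 overlapped. Wnt10a, a ligand expressed in dental epithelium and later in odontoblasts, gave 5.41, 5.65 and 5.53 against 5.05, 5.08 and 4.93. Fgf9, a growth factor of the dental epithelium and enamel knots, gave -2.84, -2.55 and -2.27 against -1.24, -1.11 and -0.65, the one gene of this list with a gap over 1. Shh, the hedgehog ligand of dental epithelium, overlapped, between 3.11 and 3.53. Of 10 Notch pathway genes, Jag1, Dll1 and Hes1 were higher and Hes5 was lower, none of them under median scaling. Beside the same shares over all features, these counts too are small. Jag1, a Notch ligand, gave 3.24, 3.17 and 2.84 against 2.12, 2.14 and 2.18, but a second Jag1 probe, dimmer, overlapped.

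Genes of the secretory pathway were for the most part not separated. Of 24 measured, 6 were higher and none was lower, beside 9.32% and 6.48% over all features. Under median scaling 0 were separated, and under quantile normalization 2 were higher and 3 lower. The chaperones Hspa5, Hsp90b1 and Calr overlapped, with Hspa5 between 5.10 and 5.50. Xbp1, a transcription factor of secretory cells, was separated with 3.01, 3.00 and 2.99 against 2.17, 2.67 and 2.18, and so was Dnajb9, an endoplasmic reticulum co-chaperone, with a gap of 0.73.

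**Figure D3:**
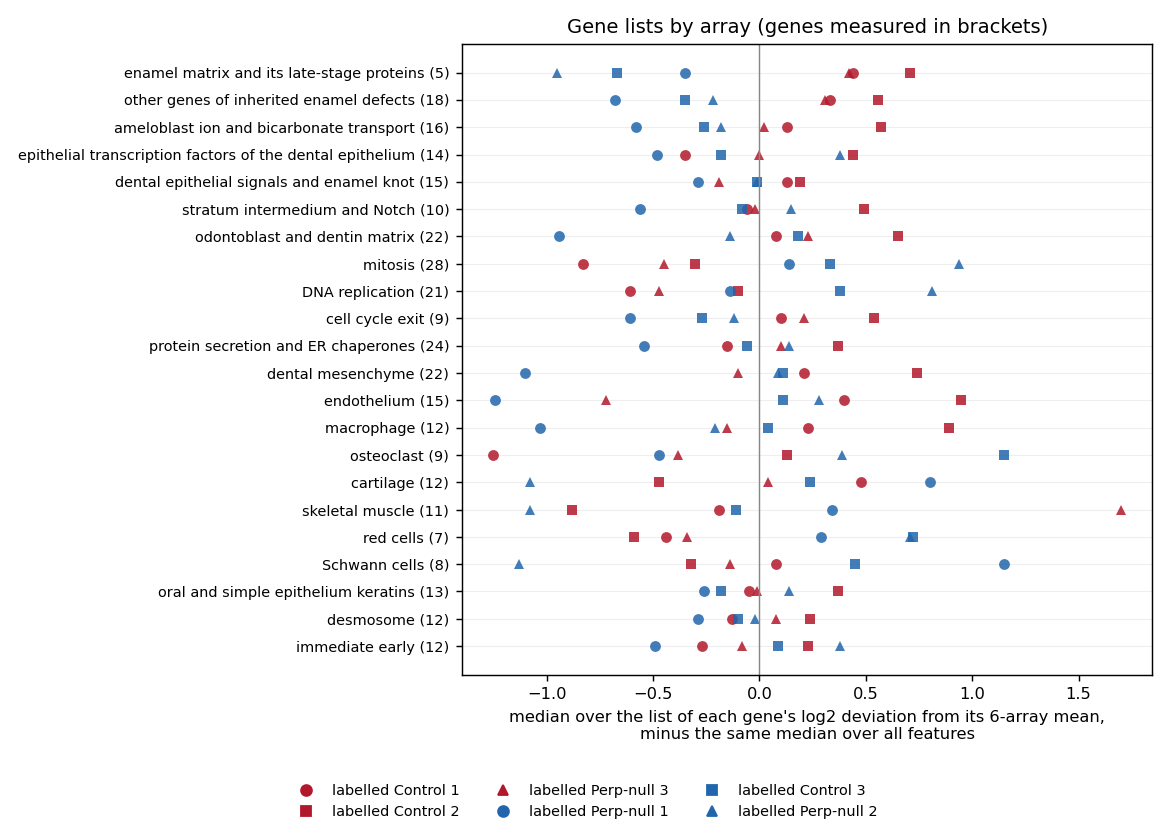
Each row is a gene list, with the number of genes measured in brackets, and each point is 1 array. The horizontal axis is the median over the list of the log2 deviation of each gene from its mean over the 6 arrays, less the same median over all features. Mitosis runs from -0.83 to -0.30 on the higher-Mmp20 arrays (red) and from 0.14 to 0.94 on the others (blue), and the enamel matrix list is in the opposite order. A constant shift of an array, such as median scaling gives, cancels in these values, so its effect on the split does not show here.

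The order of the arrays differed from list to list. The list medians here are relative to the median over all features of the same array. The choice of the 75th percentile or the median therefore cancels, and its effect on the split does not show. On this scale the enamel matrix list had medians of 0.44, 0.71 and 0.42 on the higher-Mmp20 arrays and -0.35, -0.67 and -0.95 on the others. The mitosis list had -0.83, -0.30 and -0.45 against 0.14, 0.33 and 0.94. The mitosis sets were 0.44 apart, while for DNA replication they overlapped by 0.04 (-0.61, -0.10 and -0.47 against -0.14, 0.38 and 0.81). With median scaling and without this reference, the mitosis medians were -1.03, 0.17 and -0.25 against -0.63, 0.25 and 1.49. There the sets overlapped for mitosis, and for DNA replication too. The array labelled Perp-null 2 was at the end of the enamel matrix and mitosis lists. That array also had the fewest probes above background (72.8%) and the most outlier spots (68). For the odontoblast list the array labelled Control 3 (0.18) lay among the higher-Mmp20 arrays (0.08, 0.65 and 0.23), and the array labelled Perp-null 1 was lowest (-0.94).

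Markers of other tissues in the germ varied between arrays and mostly across the 2 sets. The summed linear signal of 22 dental mesenchyme genes, in units of the 75th percentile, ran from 159 to 214 on the higher-Mmp20 arrays and from 81.7 to 174 on the others. It was lowest on the array labelled Perp-null 1, where the list median was -1.10. Of these genes 4 were higher and 1 was lower, beside 9.32% and 6.48% over all features. Under median scaling none of those was separated, and Fbn2, which had overlapped, was higher. The 15 endothelial genes summed to between 19.7 and 46.3 on the higher arrays and between 18.7 and 34.1 on the lower, and none was separated. For 12 macrophage genes the sums were 11.1 to 16.7 and 7.86 to 16.0. Of these C1qa was higher, a share near that over all features. Under median scaling C1qa overlapped and Cx3cr1, which had overlapped, was higher. The 9 osteoclast genes summed to 5.79 to 12.9 and to 10.5 to 30.3. The sum was highest on the array labelled Control 3 and lowest on that labelled Control 1. Of these genes Calcr, Ocstamp and Atp6v0d2 were lower on the higher-Mmp20 arrays, beside 6.48% over all features. Calcr was lower under median scaling too. The 11 muscle genes summed to 3.88 to 25.6 and to 3.43 to 11.4, with the highest sum on the array labelled Perp-null 3. The 7 red cell genes summed to 59.8 to 69.7 on the higher arrays and to 66.0 to 98.4 on the lower, and the 8 Schwann cell genes to 6.98 to 8.15 and to 9.69 to 10.1. The 12 cartilage genes summed to 23.0 to 27.1 and to 10.4 to 15.2. That difference came with Col9a3 and Col11a2, which were separated (Col11a2 also under median scaling), while Col2a1, which defines cartilage, was dim and overlapped. In each of these lists most genes were above background on all 6 arrays, and the part of these tissues in the other gaps was not tested.

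Among named genes above background on all 6 arrays, the 10 largest gaps in the higher direction lay outside the enamel lists, with Relt next. Galnt12, which encodes a transferase that starts mucin-type O-glycans, gave 4.24, 4.61 and 4.02 against 1.34, 1.20 and 1.24, a gap of 2.68 or 6.42-fold. Crtac1, a secreted acidic matrix protein, gave 4.43, 4.78 and 4.11 against 1.80, 1.27 and 1.34, and its second probe had a gap of 1.60. Cd55, the complement decay-accelerating factor, gave 3.53, 3.68 and 3.00 against 0.95, 0.66 and -0.08. In each of these genes the nearest arrays of the 2 sets differed by more than the whole range within either set. Mgp, the matrix Gla protein, an inhibitor of calcification, gave 4.53, 4.71 and 4.42 against 2.49, 2.38 and 1.40.

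The others of the 15 largest were Steap1, Gpr4, Nrn1l, Cst6, Rdh19, Bnc1, Relt, Arsb, Tppp, Slc24a3 and Pcsk2, with gaps from 1.62 to 1.99. Gpr4 is a proton-sensing receptor, Cst6 an inhibitor of cysteine proteases and Bnc1 a zinc finger protein of basal keratinocytes. Slc24a3 is a potassium-dependent sodium-calcium exchanger, and gave 2.51, 2.71 and 2.50 against 0.66, 0.51 and 0.80. Arsb is a lysosomal sulfatase of glycosaminoglycans and Pcsk2 a prohormone convertase. Second probes of Steap1, Arsb and Pcsk2 were separated too, with gaps of 1.52, 1.15 and 1.05, while dimmer second probes of Gpr4 and Cst6 overlapped.

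In the opposite direction the largest gap was that of Rprm, which encodes reprimo, a p53-dependent protein of G2 arrest. Rprm gave -1.86, -1.24 and -1.26 against 0.34, 0.58 and 1.44, a gap of 1.57, and its second probe had one of 1.70. Next came Vat1l, Tcerg1l and Synpr, the last of which encodes a synaptic vesicle protein. Vat1l gave -0.71, -0.28 and -0.11 against 1.36, 1.86 and 2.34, and 2 further Vat1l probes were separated. Genes of chromosomes and division were among the 15: H1f5, a linker histone, gave 1.78, 1.95 and 2.04 against 3.41, 3.39 and 3.35. Cenph, of the inner kinetochore, had a gap of 1.10, Knstrn, a spindle protein, one of 1.31, and Traip, a ubiquitin ligase at replication forks, one of 1.05. The others were Krtap17-1, Tafa1, Prkg2, Txnrd2, Mboat1, Bicdl2 and Fgf9. Second probes of Tcerg1l and Prkg2 overlapped. Under median scaling 2 of these 15 were separated, Tcerg1l and Bicdl2.

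**Figure D4:**
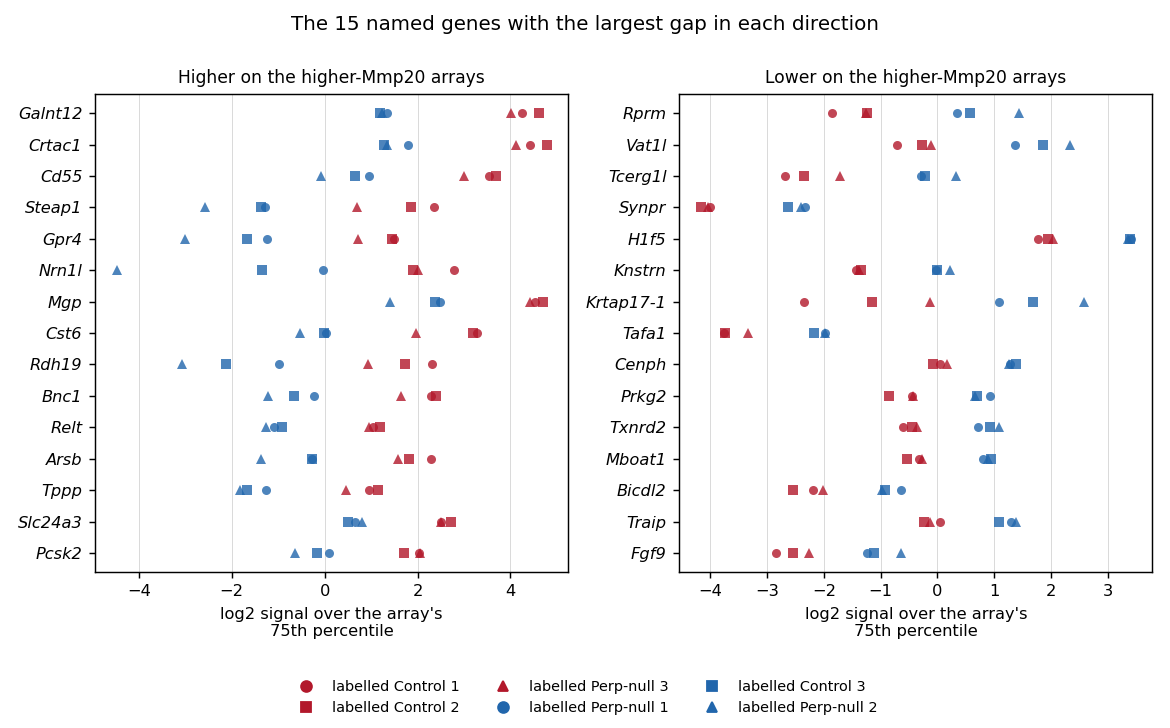
The 15 named genes with the largest gap in each direction, among those above background on all 6 arrays, with log2 signal over the array's 75th percentile on the horizontal axis. Points, colours and shapes are as in the plot of enamel, dentin and cell cycle genes. The gap runs from 2.68 (Galnt12) to 1.62 (Pcsk2) on the left and from 1.57 (Rprm) to 1.04 (Fgf9) on the right, where median scaling leaves 2 of the 15 separated.

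The value table offers 1 array that did not choose the sets, its unmatched column labelled Perp-null 2. Its Mmp20 value was the lowest of the table (10.50, against 11.52 to 14.08 in the other columns). The table column matching each scanner file was given that file's set, which leaves 2 higher and 3 lower columns. Among features with a gap of at least 1 log2 unit in the scanner files, 73 of the 74 higher and 20 of the 23 lower ones were separated in the table too. The matched columns follow the same scanner files that picked these features, and there are fewer of them to separate. Those counts therefore add no support and only set the features for the unmatched column. The unmatched column fell within or beyond the values of the lower-Mmp20 columns for 68 of the 73 (93.2%) and for 20 of the 20. Of 45 such mitosis and replication genes it did so for 44 (97.8%), and of 19 such genes of the enamel matrix, enamel defect and ion transport lists for 18 (94.7%). The share was 83.7% over the 1804 separated higher features and 87.3% over the 1045 lower ones. The column shares its normalization with the others, so these shares are a description.

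The labelled genotypes were tested too, but that test can say little on the genes with large gaps. In the value table each labelled genotype held 1 column matched to a higher-Mmp20 array. Features chosen for their gaps therefore varied within each genotype by construction, and a failure to pass is no result about them. With the scanner files as labelled, limma called 0 of 26676 features (0%) at an adjusted p of 0.05, or 1 with the replicate number as a block, and 630 had an unadjusted p below 0.05. In the value table, where Perp follows the labels, limma called 6291 (23.6%), of which 2305 (8.64%) were higher and 3986 (14.9%) lower in the Perp-null columns. Most calls were of dim features, 2285 of the higher and 3681 of the lower ones lying below the median level, and of the brighter features 2.44% were called. Perp was lower by -9.31 ± 0.24 (log2, SE; limma adjusted p 6.08e-06, n = 3 and 3). Of the 97 features with a gap of at least 1 log2 unit, 1 (1.03%) passed in the table. Of the 49 mitosis and replication genes 0 passed, with a smallest adjusted p of 0.278. Of the 39 genes of the enamel matrix, enamel defect and ion transport lists 3 (7.69%) passed, and these were Cftr, Slc26a7 and Cldn19, each of which overlapped between the sets. In the table Ambn differed by -0.93 ± 0.69 (limma adjusted p 0.401), Enam by -1.18 ± 0.75 (adjusted p 0.313) and Birc5 by 0.11 ± 0.42 (adjusted p 0.892). None of these 3 passed, which does not show that they did not differ.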

How the data were processed

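Each sample was hybridised to its own 1-colour array. The deposited scanner files hold spot intensity on a linear scale, background-subtracted but not scaled between arrays, per the file headers. The submitters' processing notes name Agilent Feature Extraction 10.3, whereas the headers of the scanner files give 10.5.1.1. The authors' deposited value table holds log2 values whose quartiles were nearly equal in all columns (medians 8.36 to 8.39); its normalization is not given in the sources used here, and it runs from about 4.95 to 17.86.

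From the scanner files, log2 of the processed signal minus the 75th percentile of the array over gene probes was computed. The 1417 control spots per array were dropped, as were outlier-flagged spots (4 to 68 an array, treated as missing). Probes well above background on at least 3 arrays were kept (33735 of 41174), and the brightest probe stood for a gene. Unversioned RefSeq accessions (GRCm38.p6) named 24844 probes (60.3%). Signal at the 75th percentile was 1690 to 2200 units, 72.8% to 82.3% of probes were above background and none was saturated. The number of arrays limits precision.

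The labelled genotypes went into limma 3.58.1 under R 4.3.3 (lmFit, eBayes with trend, Benjamini-Hochberg, adjusted p 0.05). Its calculation and the separation counts were tested on simulated data. The members and the 23 gene lists were chosen with earlier results of these data known, and so were the tests. The naming rule took a fixed set of 12 markers, the 6 brightest genes of each list and the 15 largest gaps each way; the latter were restricted to genes above background on all 6 arrays. Other genes in the text were chosen after their values were seen, and some genes the rule names are not reported here. Replicate numbers were shared by the labelled groups. The deviations of same-numbered arrays correlated at 0.843, 0.876 and 0.193. The main genotype comparison left this pairing out, and the numbers entered only as a block in an alternative. Pairing cannot be told apart from the position on the slide.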

Additional observations from a re-analysis of the deposited data

How the results depend on the processing

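The number of arrays, the choice of scale and the uncertain match of files to labels limit these values. Median scaling gave 713 features higher and 305 lower, with 3 enamel defect, 3 ion transport, 3 odontoblast and 1 cell cycle exit genes higher (1 odontoblast gene was lower), and 0 mitosis genes and 1 replication gene lower. On 4 arrays, without Control 2 and Perp-null 2 (a choice made after seeing the data), 27 mitosis genes were lower with the 75th percentile and 2 with median scaling. Normexp left 5 ion transport genes, and the mean of probes left 2 cell cycle exit genes. A gap of at least 1 log2 unit, signal above background not required, left 80 and 26 features, with 4 enamel defect genes, 1 odontoblast gene and 0 enamel matrix, ion transport, mitosis, replication and cell cycle exit genes in the direction reported. Read within each slide, 2676 features were lower. In the value table by sample label 133 and 152 features were separated and, in the direction reported, 0 genes of each of these 7 lists, and the Mmp20 gap was 0.55 with another order of arrays. By matched array, an alternative added after seeing the data with 2 columns against 3, 3231 and 3151 were, with 28 mitosis genes. Leaving out 1 array gave 2924 to 3710 features higher and 2121 to 5223 lower, the last without Perp-null 2, with fewer arrays to separate, and 9 to 14 odontoblast genes; mitosis stayed at 27 to 28 and replication at 20 to 21. The genotype comparison called 1 feature with normexp, 1 with array weights and 6291 in the value table. With the replicate block for the pairing it called 1 feature, Btbd9 (limma adjusted p 0.0316), and it changed no call among the genes named. The Perp difference in the scanner files, -0.59 ± 4.32 (limma adjusted p 1), ran from -4.25 to 3.65 when 1 array was left out and was 1.26 without Control 1 and 1.23 without Control 3; the Perp signals against the labels are given above.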

Other observations

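Histone genes, taken by symbol after their values were seen, were also lower on the higher-Mmp20 arrays. Of 27 measured replication-dependent histone genes, 17 were separated with lower values and 0 with higher ones, beside 6.48% and 9.32% over all features; under median scaling 2 were. H2ac4 gave 3.24, 3.22 and 3.04 on the higher-Mmp20 arrays and 4.60, 4.24 and 4.53 on the others, and H4c4 gave 4.23, 4.52 and 4.46 against 5.25, 5.17 and 5.52. Near-identical histone copies can share probes, so these genes are not independent.

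Most muscle genes were highest on the array labelled Perp-null 3. Tnnc2, the fast troponin C, gave 2.69 there and between -0.05 and 1.20 on the other 5 arrays. Myh8, the perinatal myosin heavy chain, gave 1.81 there and between -2.09 and -0.08 elsewhere. By contrast Myh3, Actn2 and Des were higher on the array labelled Perp-null 1 than on Perp-null 3. Osteoclast genes stood out on the array labelled Control 3, where Ctsk, the collagen-degrading cathepsin K, gave 3.40 and between 1.11 and 2.93 on the other 5.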
